A study of Homo sapiens with 118 samples.

Results

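The genes described here are 10 members of the S100 family of calcium-binding proteins: S100A4, S100A6, S100A8, S100A9, S100A10, S100A11, S100A12, S100A13, S100A14 and S100P. They were taken as the rows of the count table whose name, without the trailing probe number, equals 1 of these symbols. This gave 11 of 22069 rows, because S100P had 2 rows, S100P_24732 and S100P_6092. The set was chosen by the response of S100A8 to vorinostat at the second-lowest concentration. In that comparison (C2 against C1) the log2 change was 0.92 for S100A8 and -0.998 for SAFB, the rows that passed the threshold, and -1.10 for ZNFX1, which lay just outside it. S100A9, at 0.71 with an adjusted p of 0.391, was well outside it. These values picked the family and carry no test, and neither does any other vorinostat comparison of S100A8 that holds C1 or C2.

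HepaRG cells, an established human line from a liver tumor that is used after differentiation into hepatocyte-like and biliary-like cells, were thawed, kept in culture and then exposed for 72 hours, with daily renewal, to 1 of 8 inhibitors of histone deacetylases. Each chemical was given at 5 concentrations, C1 (lowest) to C5 (highest), in cells of 3 HepaRG batches, and replicates 1, 2 and 3 are these batches. The 118 libraries form 38 groups of 3 and 2 groups of 2, since panobinostat C3 and trichostatin A C4 lacked replicate 3. Lysates were read with TempO-Seq, in which a pair of detector oligonucleotides is hybridised to each transcript, ligated, amplified and counted. No solvent control was used here, so C1 of the same chemical was the reference throughout, and all comparisons of a chemical with its C1 share those libraries. A response already complete at C1 cannot be seen in this design.

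The labelled concentrations ran from 0.041722 to 0.86 µM for apicidin, from 0.177222 to 3.9 µM for mocetinostat, from 0.001468 to 0.084 µM for panobinostat and from 4.94 to 94.5 µM for scriptaid. They ran from 1.143333 to 44.0 µM for tacedinaline, from 0.018811 to 1.5237 µM for trichostatin A and from 0.404778 to 23.5 µM for vorinostat. For valproic acid the labels gave 100.478 to 3038, with the unit uncertain. Panobinostat, scriptaid, trichostatin A and vorinostat are hydroxamic acids, mocetinostat and tacedinaline are benzamides, apicidin is a cyclic tetrapeptide and valproic acid is a branched short-chain fatty acid. Because the concentrations differ between chemicals, the values of the chemicals stand side by side and no pair was compared at a matched dose. Scriptaid, tacedinaline and vorinostat libraries lay on plate E and the others on plate H, so plate and chemical cannot be told apart.

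S100 proteins are small proteins with paired EF-hand motifs that change shape when they bind calcium and then dock on target proteins. Some act mainly inside the cell, on annexins, the cytoskeleton and protein export, and others are released and bind receptors such as RAGE (the product of AGER) and TLR4. S100A8 and S100A9 form calprotectin, an abundant protein of neutrophils and monocytes that epithelia can also make under stress or inflammation. Most of the family lies in a cluster on chromosome 1, where S100A9, S100A12 and S100A8 are neighbors, and S100P lies apart on chromosome 4.

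The sequences just upstream of the start sites are shown for the 6 of 10 genes that carry the exact letters TATAAA there. These genes include S100A8, S100A9, S100A12 and S100P, which rose under several chemicals, S100A13, which fell, and S100A4, which went both ways. S100A6, which was higher under vorinostat at C4 and C5, has no exact TATAAA there. The windows of S100A6 and S100A14 hold the near match TATAAG, which was not searched for. RefSeq promoter entries of GRCh38.p14 (250 bases before to 50 after a start) were found for 10 of 10 genes, in 14 entries. TATAAA on the gene strand, within 50 bases before a start, was present in 2.63% of all 35116 entries. The 6 of 10 counts genes with the exact match in any of their entries, so it is not in the same unit as this share. Each line gives 60 bases from the gene strand, 5′ to 3′, with TATAAA in capitals.
S100A8, second of its entries, chr1:153391074-153391133, minus strand: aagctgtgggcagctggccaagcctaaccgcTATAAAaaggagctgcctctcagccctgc
S100A9, chr1:153357794-153357853, plus strand: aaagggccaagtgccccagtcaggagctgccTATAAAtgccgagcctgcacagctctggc
S100A12, chr1:153375622-153375681, minus strand: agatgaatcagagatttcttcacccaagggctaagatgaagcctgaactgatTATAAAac
S100P, chr4:6693818-6693877, plus strand: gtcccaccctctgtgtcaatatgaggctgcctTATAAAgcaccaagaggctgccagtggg
S100A4, chr1:153545807-153545866, minus strand: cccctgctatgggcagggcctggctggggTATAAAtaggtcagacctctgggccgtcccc
S100A13, second of its entries, chr1:153627506-153627565, minus strand: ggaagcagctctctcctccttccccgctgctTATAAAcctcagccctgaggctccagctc

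The match began 29 bases before the start in S100A8, S100A9 and the S100A13 entry shown, 28 in S100P, 31 in S100A4 and 8 in S100A12. S100A10, S100A11, S100A14 and S100A6 had no TATAAA in that window. GGGCGG, read on either strand of the whole entry, was found in any entry of 5 of the 10 genes (S100A6, S100A9, S100A10, S100A11 and S100A13). It was present in 45% of all entries, a share of entries and not of genes. These matches are descriptions of the letters in these windows and were not tested against the expression values.

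Library totals lay between 1061359 and 5250260 counts, with a median of 4072900 at C1 and 3380500 at C5. Levels are given as CPM, counts relative to the library total after TMM scaling over all libraries, and differences as log2 fold changes from edgeR's quasi-likelihood test, with Benjamini-Hochberg adjustment over all rows tested in that chemical. A difference was called at an adjusted p under 0.05 and a fold of at least 1.5. The replicates are cell batches of 1 line, so the p-values measure the spread between batches. In 3 libraries the correlation with the best group mate was low, at 0.814 for scriptaid C4 replicate 3, 0.867 for mocetinostat C2 replicate 3 and 0.876 for trichostatin A C1 replicate 3, against a median of 0.960. The last of these matters most here, since it serves as a reference. Hepatocyte markers were abundant (summed CPM at C1 between 11876 and 56210) and fell to between 2744 and 41324 at C5. In bulk lysates, fewer cells of a type and less RNA per cell cannot be told apart.

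S100A8 and S100A9 rose with concentration under most of the inhibitors, S100A13 fell at C5 under 5 of them, and S100A14 rose under some and fell under others. Over the 7 rows that passed the low-count filter in every chemical (S100A4, S100A8, S100A9, S100A10, S100A11, S100A13 and S100A14), 25 of 55 pairs of row and chemical were called at C5 against C1, which is 45.5%, where 25% of all pairs of row and chemical in the table were called. Of these 25, 15 rose and 10 fell, against 11.6% rising and 13.4% falling in the table. Most of the rises were calprotectin rows: S100A9 gave 6 and S100A8, whose response chose the set, gave 5. S100A14 and S100A4 gave 2 rises each, and S100A10, S100A11 and S100A13 gave none. S100A13 gave 5 of the falls. The median log2 change of the 55 pairs was 0.18. S100A8 under vorinostat is left out of these counts. The table shares, here and below, also cover rows that passed the filter in only some chemicals, so they are from an unlike set.

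The calls came at lower concentrations too. At C2, 6 of 49 pairs were called and each of them rose, where 0.0954% of the table was called and 0.0733% rose. All 6 were S100A8 or S100A9, under apicidin, mocetinostat and tacedinaline. With all libraries in 1 fit, 4 of the 6 were not called, namely S100A8 and S100A9 under apicidin (both adjusted p = 0.397) and under tacedinaline (adjusted p = 0.741 and 0.0767). At C3, 11 of 55 pairs were called, all rising, where 5.98% of the table was called and 2.82% rose. S100A9 gave 5 of these and S100A8 gave 4. At C4, 20 of 55 were called, 16 rising and 4 falling, where 16% of the table was called, 7.85% rising and 8.14% falling. S100A9 gave 7 of the C4 rises and S100A8 gave 5. In a fit of the slope on log2 concentration, written as the log2 change it predicts between C1 and C5, 24 of 55 were called, 18 rising and 6 falling, where 25.4% of the table was called, 12.7% in each direction. S100A9 gave 6 of the rises by slope and S100A8 gave 5. Over all 11 rows (60 pairs tested at C2 and 68 elsewhere), which include low-count rows that can pass through their high groups alone, leaving out replicate 2 took the calls from 6 to 1 at C2, from 17 to 11 at C3, from 29 to 19 at C4, from 34 to 22 at C5 and from 33 to 22 by trend. The C2 count was 3 without replicate 1, and the C3 count was 11 without replicate 3. Without mocetinostat C2 replicate 3 the C2 count was 9, as 29.7% of mocetinostat rows were then called at C2, against 0.191% with it. The C2 calls then included a fall, S100A4 at -4.64 (adjusted p = 0.00162). The table share of 0.0954% at C2 also depends on that library.

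**Figure D1:**
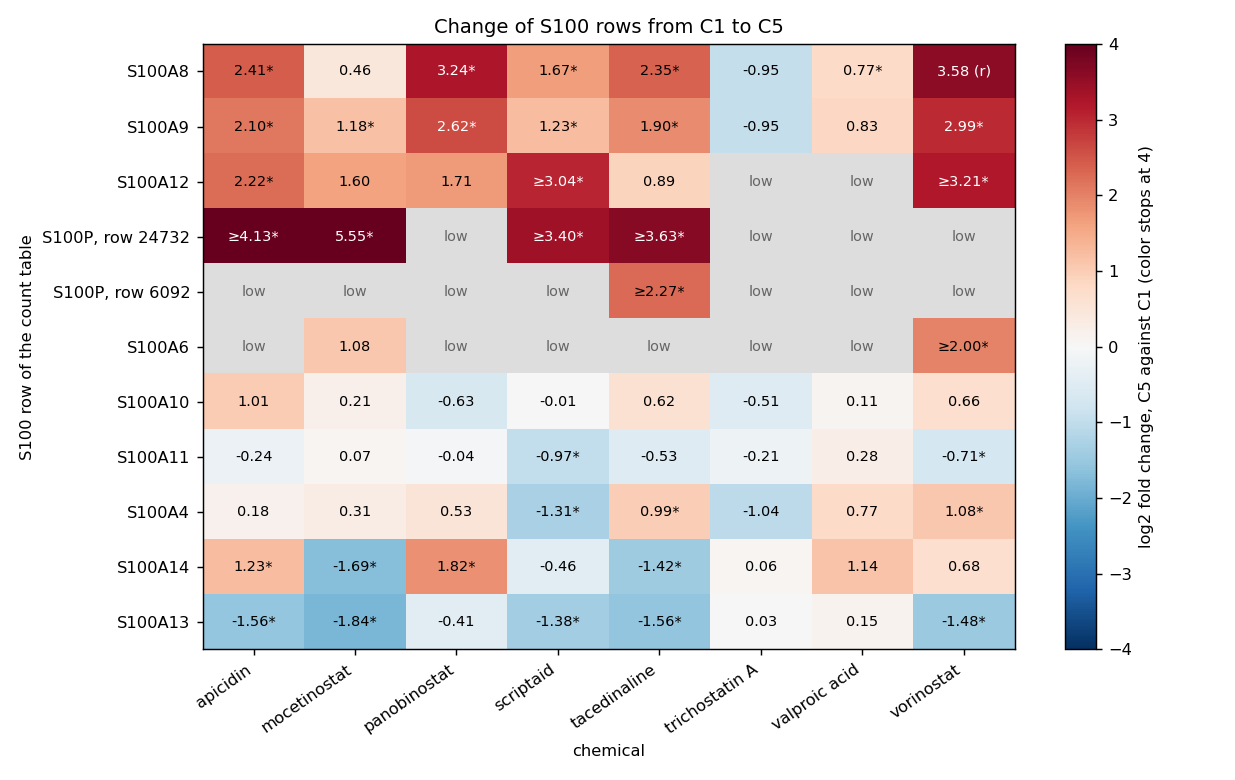
Log2 fold change from C1 to C5 for the 11 S100 rows (vertical axis) under the 8 chemicals (horizontal axis). A star marks a called change. Stars on S100A12, S100P and S100A6 are not used as support, since these rows can pass the low-count filter through their high groups alone. The mark (r) stands on S100A8 under vorinostat, which carries no test because its C1 libraries served to choose the genes. The word "low" marks a row that did not pass the low-count filter, and ≥ a bound against 3 counts per library. S100A8 and S100A9 are red under all chemicals but trichostatin A, where both are at -0.95, and S100A13 is lowest under mocetinostat, at -1.84.

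S100A8 encodes the smaller calprotectin subunit. Under panobinostat its level was 63.3, 73.3 and 52.5 CPM in the 3 C1 libraries and 581, 693 and 541 CPM at C5, so the groups lay far apart. The log2 change was 3.24 (SE 0.215, adjusted p = 1.52e-09), and its C2 and C3 changes, 0.44 and 0.52, were not called. Of all rows tested under panobinostat, 16.2% were called at C5. The rise was thus seen at C4, where the log2 change was 1.53 (adjusted p = 0.000154), and at C5.

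Apicidin and tacedinaline raised S100A8 earlier in the series. Under apicidin the libraries held 171, 242 and 202 CPM at C1, 359, 507 and 474 at C2, 1263, 1405 and 1224 at C3 and 1205, 1345 and 698 at C5. Every library from C2 on was above every C1 library. The log2 change was 1.11 at C2 (adjusted p = 0.0453), 2.67 at C3 and 2.41 at C5 (SE 0.218, adjusted p = 6.16e-08), where 28.8% of apicidin rows were called. The C2 call was lost without replicate 2 (1.14, adjusted p = 0.838) or 3 (1.04, adjusted p = 0.806).

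Under tacedinaline S100A8 stood at 136, 114 and 157 CPM at C1, at 266, 342 and 213 at C2, at 1029, 1254 and 932 at C4 and at 705, 697 and 576 at C5. The level was highest at C4, with a mean of 1072 ± 165 CPM (SD, n = 3). The log2 change was 1.01 at C2 (adjusted p = 0.000162, edgeR), 3.03 at C4 and 2.35 at C5 (SE 0.156, adjusted p = 2.27e-16), where 38.8% of rows were called. Without replicate 2, the C2 change was 0.69 (adjusted p = 0.216), and with all libraries in 1 fit it was 1.01 (adjusted p = 0.741).

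Mocetinostat gave a rise and a return. S100A8 stood at 332, 343 and 309 CPM at C1, 1480, 1714 and 1398 at C3, and 401, 499 and 374 at C5. All 3 C5 libraries were above all C1 libraries but below all C3 libraries. The change at C2 was 1.16 (adjusted p = 0.0161; without replicate 1 it was 1.23 with adjusted p = 0.277, and without replicate 2 it was 0.98 with adjusted p = 0.923), or 1.24 (adjusted p = 0.000327) without the C2 library that stood apart, and at C3 it was 2.25 (adjusted p = 2.47e-06). The C5 change against C1 was 0.46 and was not called (adjusted p = 0.0842), where 30.5% of mocetinostat rows were; scaling by total count alone made it 0.64 (adjusted p = 0.0114). C5 against C3 fell by 1.79 on the log2 scale (adjusted p = 4.63e-05), a comparison in which 7.13% of rows were called.

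Scriptaid raised S100A8 with more scatter between batches. The libraries held 126, 156 and 90.7 CPM at C1, 286, 575 and 502 at C3, and 529, 454 and 148 at C5, so replicate 3 at C5 lay within the C1 range. The C5 change was 1.67 (SE 0.383, adjusted p = 0.00281), where 29.8% of rows were called. It was not called without replicate 1 (1.33, adjusted p = 0.0899) or replicate 2 (1.71, adjusted p = 0.0545), and was 1.65 (adjusted p = 0.000101) without the C4 library that stood apart. The same held at C3, where the change of 1.89 (adjusted p = 0.0160) had an adjusted p of 0.0929 without replicate 1 and 0.585 without replicate 2.

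At C5 S100A8 was called higher under valproic acid and was not called under trichostatin A. Valproic acid gave 59.5, 69.3 and 77.0 CPM at C1 and 124, 137 and 86.7 at C5. The groups did not overlap, and the change of 0.77 (SE 0.219) was called (adjusted p = 0.0243), where 11.1% of rows were. Without replicate 1 it was 0.62 (adjusted p = 0.363) and without replicate 2 it was 0.64 (adjusted p = 0.197). Trichostatin A gave 96.4, 100 and 572 CPM at C1 and 85.2, 181 and 128 at C5, so 1 C1 library was above all others of this chemical. The change was -0.95 (adjusted p = 0.551), and 0.42 (adjusted p = 0.543) without that library. Of all rows tested under trichostatin A, 0.0154% were called at C5, none of them an S100 row, while 2 of the 7 S100 rows had an unadjusted p under 0.05.

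Vorinostat levels of S100A8 were 66.5, 66.5 and 93.2 CPM at C1, 142, 149 and 141 at C2, 342, 335 and 298 at C3, 1195, 1258 and 844 at C4, and 835, 960 and 724 at C5. The rise from C1 to C2 chose the genes, so that step is no result. C4 lay wholly above C3. The comparisons of C3 to C5, which share no library with the choice of genes, were tested. S100A8 was higher at C4 than at C3 by 1.77 (adjusted p = 3.73e-10; 14.4% of rows called), and higher at C5 than at C3 by 1.45 (SE 0.156, adjusted p = 3.60e-09; 38.5% of rows called). With each batch left out in turn the C5 value lay between 1.39 and 1.49.

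**Figure D2:**
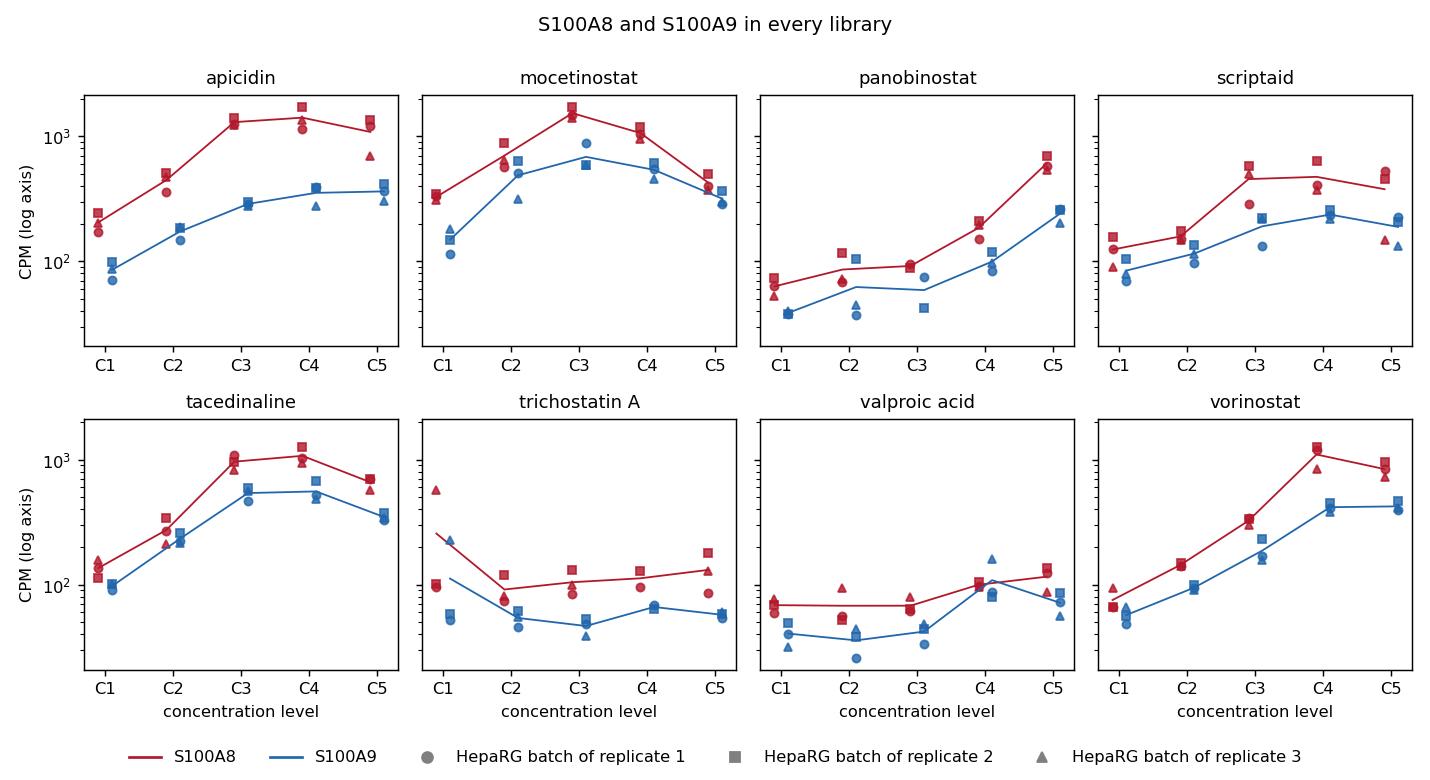
CPM of S100A8 (red) and S100A9 (blue) on a log axis in every library, by concentration level (C1 to C5) and chemical; symbols mark the HepaRG batch and lines join the group means. The C1 libraries of trichostatin A hold 1 pair of points well above the rest (572 CPM for S100A8 and 226 for S100A9), and mocetinostat peaks at C3.

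S100A9, the other calprotectin subunit, moved like S100A8. It was called at C5 under 6 of 8 chemicals, all rising: vorinostat 2.99, panobinostat 2.62, apicidin 2.10, tacedinaline 1.90, scriptaid 1.23 and mocetinostat 1.18 on the log2 scale. The largest adjusted p of these was 0.00324. The mocetinostat call was lost without replicate 2 (1.06, adjusted p = 0.0825) and the scriptaid call without replicate 1 (0.93, adjusted p = 0.0950).

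Under vorinostat S100A9 stood at 48.6, 56.2 and 66.5 CPM at C1, 171, 232 and 158 at C3, and 392, 464 and 413 at C5, with no overlap between the 3 concentrations. Of all vorinostat rows, 47.5% were called at C5. Under panobinostat the C1 libraries held 38.2, 37.8 and 40.0 CPM and the C5 libraries 261, 258 and 204. Mocetinostat gave 115, 149 and 182 CPM at C1, 877, 586 and 590 at C3, and 289, 367 and 296 at C5. As with S100A8, its C5 libraries were between those of C1 and C3, and C5 against C3 was -1.05 (adjusted p = 0.0247; without replicate 1 it was -0.78 with adjusted p = 0.253, and without replicate 2 it was -1.27 with adjusted p = 0.176).

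Under valproic acid S100A9 was called at C4 (1.43, adjusted p = 0.00122) but not at C5 (0.83, adjusted p = 0.0517). With the cell batch as a block the C5 value was 0.83 and was called (adjusted p = 0.0407). Trichostatin A gave -0.95 (adjusted p = 0.477) with all libraries and 0.07 (adjusted p = 0.934) without C1 replicate 3, which held 226 CPM against 51.9 and 58.2 in the other 2 batches.

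Across the 40 groups, mean log2 CPM of S100A9 and S100A8 had a Pearson r of 0.963, and across the 118 libraries r was 0.951. These are descriptions, since the libraries share chemicals, batches and scaling. Outside the family, the rows whose group means were most like S100A8 over the 40 groups were SERPINB2 (r 0.895), SCEL (0.895), MMP15 (0.892), GPX3 (0.891) and POLR1D (0.891). Within it, S100A2 had r -0.881, S100A13 -0.713 and S100A14 0.750.

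The neutrophil and monocyte transcripts that could be tested did not go up with calprotectin. PTPRC, the pan-leukocyte surface phosphatase, had 0 counts in all 118 libraries, and MPO, ELANE and FCGR3B reached at most 3, 2 and 1 counts. The summed CPM of the 9 markers lay between 41.8 and 140.7 at C1 and between 18.3 and 74.9 at C5, mostly from CD68 and ITGAM. By trend, only CD14, CD68 and ITGAM had enough counts to be tested. Of their 24 pairs of marker row and chemical, none rose and 8 fell. Keratinocyte markers, of which 3 of 15 pairs rose and 5 fell, summed to between 7.46 and 97.6 CPM at C1 and between 0.420 and 51.3 at C5. Over all rows 12.7% of pairs rose by trend and 12.7% fell.

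S100A12, a released RAGE ligand whose gene lies between S100A9 and S100A8, was counted rarely. It was at 0 in 13 of 118 libraries and reached at most 48 counts, and it passed the filter in 6 chemicals. Over 3 counts were found in 10 of 24 C1 libraries and in 20 of 24 C5 libraries. Since such a row can pass the filter through its high groups alone, counts per library and sizes are given for S100A12, S100P and S100A6, and their calls and p-values against C1 are not used as support.

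Apicidin libraries held 4, 12 and 7 S100A12 counts at C1, 46, 48 and 38 at C3, and 32, 27 and 44 at C5. The C5 libraries were all above C1, and the fitted log2 change was 2.22 (SE 0.580). Vorinostat libraries held 1, 3 and 2 counts at C1, 18, 39 and 19 at C4, and 20, 6 and 20 at C5. Set against a floor of 3 counts per library, C5 was at least 9.26-fold higher.

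Scriptaid took S100A12 from 1, 2 and 3 counts to 13, 26 and 16, at least 8.20-fold. Tacedinaline peaked at C4 with 16, 33 and 29 counts and returned to 4, 3 and 7 at C5. The fitted C4 change was 2.83 and the C5 change 0.89. For S100A12 the test of a difference in the C5 change between chemicals was not called (adjusted p = 0.433).

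S100P, named for placenta and made by several epithelia, is also a RAGE ligand. Its row S100P_24732 was at 0 in 52 libraries, 19 of them among the 24 at C1. Under mocetinostat it went from 0, 4 and 0 counts at C1 to 53, 32 and 23 at C3, 84, 107 and 61 at C4 and 75, 54 and 48 at C5. The fitted C5 change was 5.55 (SE 0.795) on the log2 scale, and every library from C3 on exceeded every C1 library.

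Tacedinaline and apicidin had no S100P_24732 count at C1 in any batch. Tacedinaline reached 30, 88 and 71 counts at C4 and 20, 50 and 55 at C5, at least 12.4-fold above the floor. Apicidin reached 25, 34 and 79 at C5, at least 17.6-fold. Scriptaid gave 0, 0 and 1 at C1 and 29, 30 and 12 at C5, at least 10.6-fold.

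Panobinostat did not follow these chemicals for S100P_24732, with 0, 0 and 1 counts at C1 and 3, 0 and 0 at C5, although it gave the largest tested C5 change of S100A8. Valproic acid had at most 4 counts in any library and vorinostat at most 14, and none of these 3 passed the filter. In trichostatin A the row was at 0, 0 and 164 counts at C1, so the highest value of the whole series fell in the library that stood apart, and at C5 it had 0, 3 and 0.

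The other row, S100P_6092, was at 0 in 83 libraries and reached 33 counts at most. It passed the filter under tacedinaline alone, where C1 had 0, 0 and 0 counts and C5 had 3, 33 and 16, at least 4.83-fold. Its only C1 library over 3 counts was trichostatin A replicate 3, with 18.

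S100A6 (calcyclin), which binds annexins and the ubiquitin ligase adaptor CACYBP, was at 0 in 46 libraries and never exceeded 23 counts. Under vorinostat it had no count in the 6 libraries of C1 and C2, 2, 11 and 17 counts at C4 and 8, 2 and 10 at C5, at least 4.00-fold above the floor. Under mocetinostat, the only other chemical in which it was tested, C5 against C1 was 1.08 (adjusted p = 0.590).

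**Figure D3:**
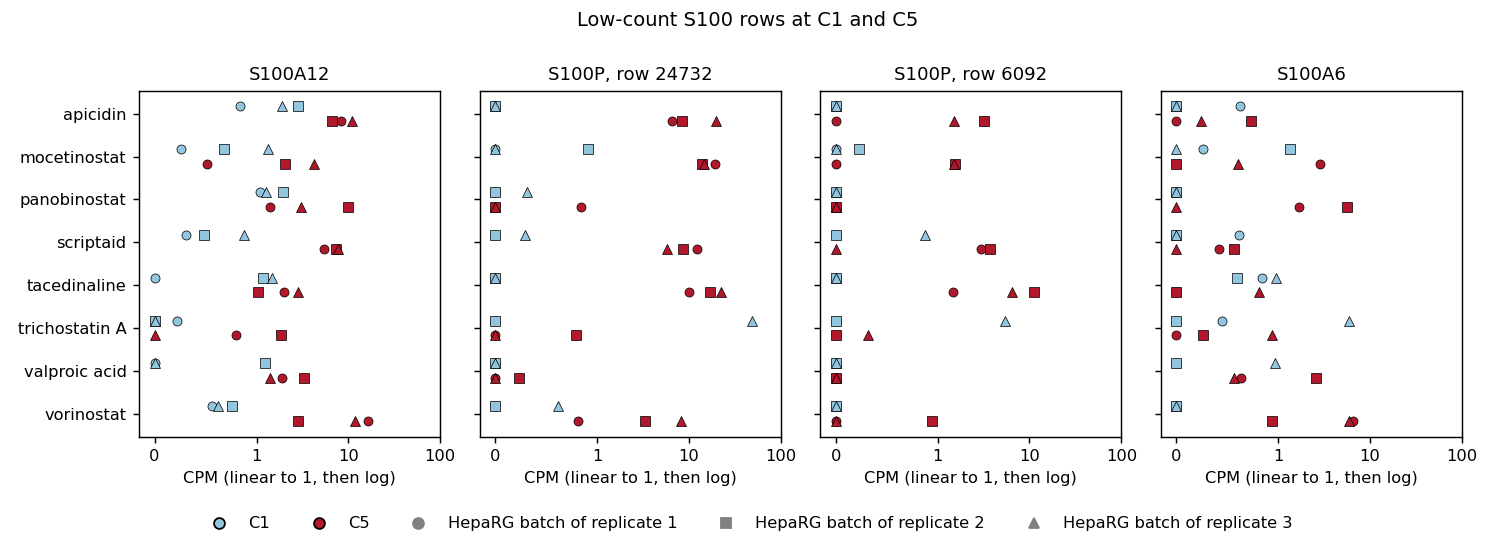
CPM of the 4 low-count S100 rows at C1 (blue) and C5 (red) by chemical, with symbols for the HepaRG batch, on an axis that is linear to 1 and logarithmic above. For S100P_24732 the C5 libraries of apicidin, mocetinostat, scriptaid, tacedinaline and vorinostat lie above their C1 libraries, vorinostat by the least (0.817 to 8.26 CPM against at most 0.622), and 1 C1 library of trichostatin A stands at 49.0 CPM.

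S100A13, which takes part in the release of FGF1 and IL1A, was the member that fell most often. C5 was called lower than C1 under mocetinostat (-1.84, adjusted p = 0.000348), apicidin (-1.56, adjusted p = 2.87e-05), tacedinaline (-1.56, adjusted p = 2.97e-05), vorinostat (-1.48, adjusted p = 5.33e-05) and scriptaid (-1.38, adjusted p = 0.0110). The scriptaid call was lost without replicate 2 (-1.28, adjusted p = 0.179). Panobinostat (-0.41), trichostatin A (0.03) and valproic acid (0.15) were not called, with adjusted p from 0.262 to 0.990.

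Mocetinostat libraries held 58.0, 52.1 and 52.5 CPM of S100A13 at C1 and 12.4, 13.6 and 17.0 at C5. Apicidin libraries held 51.8, 45.3 and 43.8 at C1 and 15.2, 18.3 and 13.9 at C5. The 2 concentrations were far apart in both chemicals. Panobinostat, which was not called, held 49.4, 56.4 and 61.4 CPM at C1 and 39.5, 42.2 and 45.5 at C5.

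Vorinostat showed no fall of S100A13 before C4. The libraries held 51.4, 38.5 and 58.1 CPM at C1, 58.8, 62.2 and 54.8 at C3, 15.8, 18.1 and 20.5 at C4 and 13.1, 10.8 and 25.4 at C5. C4 was lower than C3 by -1.66 on the log2 scale (adjusted p = 3.59e-05). Over the same step S100A8 was higher and S100A11 was not called (-0.19, adjusted p = 0.448). In the library of trichostatin A that stood apart S100A13 was at 23.3 CPM, against 65.4 and 65.6 in its group mates.

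S100A14, an epithelial member found at cell borders, differed in direction between chemicals. It rose at C5 under apicidin (26.8, 12.6 and 22.6 CPM at C1 and 43.7, 58.9 and 41.5 at C5) by 1.23 (adjusted p = 0.00304), and by 0.79 (adjusted p = 0.112) without replicate 2. It rose under panobinostat (11.1, 5.13 and 1.57 CPM at C1, 20.4, 18.7 and 26.0 at C5) by 1.82 (adjusted p = 0.0172), and by 1.26 (adjusted p = 0.116) without replicate 3.

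Under both benzamides S100A14 stood highest at C2, a change that was not called, and then fell. Mocetinostat libraries held 47.7, 56.4 and 65.4 CPM at C1, 160, 127 and 83.7 at C2 and 13.1, 20.8 and 15.5 at C5. The C2 change was 1.21 (adjusted p = 0.0759), or 1.44 (adjusted p = 0.000658) without the C2 library of replicate 3, which stood apart, and the C5 change -1.69 (adjusted p = 0.000333). Tacedinaline libraries held 16.8, 32.6 and 32.7 at C1, 46.3, 48.1 and 47.5 at C2 and 9.90, 7.19 and 13.0 at C5. Its changes were 0.74 (adjusted p = 0.443) and -1.42 (adjusted p = 0.000423). In both chemicals every C5 library was below every C1 library. Scriptaid (-0.46), trichostatin A (0.06), valproic acid (1.14) and vorinostat (0.68) were not called.

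**Figure D4:**
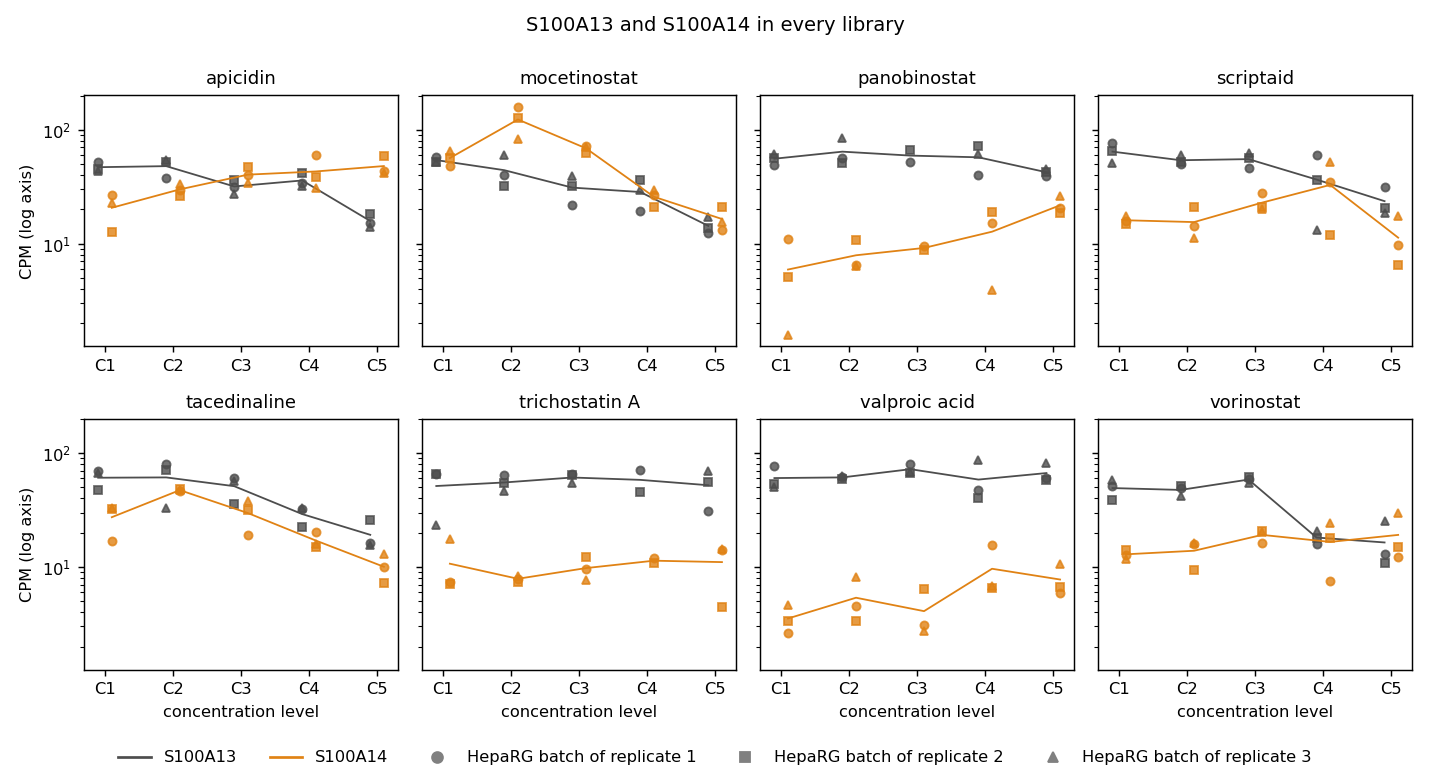
CPM of S100A13 (gray) and S100A14 (orange) on a log axis in every library, by concentration level (C1 to C5) and chemical; symbols mark the HepaRG batch and lines join the group means. S100A13 is lower at C5 under apicidin, mocetinostat, scriptaid, tacedinaline and vorinostat, and S100A14 under mocetinostat climbs to a mean of 123 CPM at C2 before it falls.

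S100A11, which binds annexin A1 and is prominent in many epithelia, changed least in size. It was called at C5 under scriptaid and vorinostat. Scriptaid gave 271, 322 and 239 CPM at C1 and 135, 156 and 113 at C5, a change of -0.97 (adjusted p = 0.0132), which was lost without replicate 1 (-1.01, adjusted p = 0.119) or 2 (-0.97, adjusted p = 0.130). Vorinostat gave 278, 278 and 269 CPM at C1 and 166, 144 and 160 at C5, a change of -0.71 (SE 0.154, adjusted p = 0.000258). Tacedinaline, with 344, 294 and 338 at C1 and 236, 207 and 200 at C5, passed on the adjusted p (0.00201) but not on the fold, at -0.53. In none of these 3 did the groups overlap.

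S100A10, the annexin A2 partner that helps place channels and plasminogen receptors at the cell surface, was not called at C5 in any chemical with all libraries and the low-count filter. Its C5 changes ran from -0.63 (panobinostat) to 1.01 (apicidin, adjusted p = 0.0745; called at 1.00 with adjusted p = 0.0424 without the filter and at 1.47 with adjusted p = 0.0483 without replicate 3), and C1 and C5 overlapped in all 8. At C4 it was called under tacedinaline, from 10.1, 16.9 and 18.1 CPM at C1 to 48.6, 35.9 and 21.0 (1.22, adjusted p = 0.00479, or 0.75 with adjusted p = 0.150 without replicate 1). Vorinostat gave 1.20 at C4 (adjusted p = 0.0322, or 0.81 with adjusted p = 0.274 without replicate 2) and 1.42 at C3 (adjusted p = 0.0427, or 0.69 with adjusted p = 0.699 without replicate 2 and 1.60 with adjusted p = 0.0753 without replicate 3).

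S100A4, which binds nonmuscle myosin and is a marker of mobile and mesenchymal cells, was called at C5 in 3 chemicals. It was lower under scriptaid (15.5, 12.2 and 15.7 CPM to 3.78, 3.69 and 9.54; -1.31, adjusted p = 0.0382). It was higher under vorinostat (4.47, 8.31 and 13.7 CPM at C1 to 17.7 ± 5.38 at C5 (SD, n = 3), the lowest at 12.3; 1.08, adjusted p = 0.0229) and tacedinaline (19.4, 4.74 and 14.9 CPM to 23.3, 16.1 and 30.6; 0.99, adjusted p = 0.0487), with overlapping groups in both. Each of the 3 calls was lost with at least 1 of the batches left out. Without replicate 2 the values were -1.16 (adjusted p = 0.273), 1.01 (adjusted p = 0.120) and 0.76 (adjusted p = 0.17) for scriptaid, vorinostat and tacedinaline, and without replicate 1 they were -1.06 (adjusted p = 0.259) for scriptaid and 0.97 (adjusted p = 0.104) for vorinostat. Without replicate 3 tacedinaline was 0.93 (adjusted p = 0.164). Under mocetinostat the S100A4 counts were 0, 2 and 78 at C2 (0, 0.575 and 18.8 CPM), against 27, 42 and 30 at C1 (7.12, 9.52 and 8.08 CPM). The C2 library that stood apart lay above all 3 C1 libraries and the other C2 libraries lay below them. The C2 change was not called with it (-0.32, adjusted p = 0.869) and was called lower without it (adjusted p = 0.00162). Summed stromal markers lay between 140.8 and 344 CPM at C1 and between 93.3 and 211.7 at C5, and their part in the S100A4 values was not tested.

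Whether the C5 against C1 change differs between the 8 chemicals was tested for each row in a joint edgeR fit of all libraries, in which 30.3% of rows in the table were called. The differences were called for S100A9 (adjusted p = 2.75e-13), S100A14 (7.86e-08), S100P_24732 (6.28e-07), S100A13 (7.47e-06), S100A11 (0.000256), S100A6 (0.0257) and S100P_6092 (0.0445); the S100P rows and S100A6 can pass the low-count filter through their high groups alone. They were not called for S100A4 (adjusted p = 0.106), S100A10 (0.615) or S100A12 (0.433). For S100A8 the test was made over the 7 chemicals without vorinostat, where 26.9% of rows were called, and gave an adjusted p of 1.20e-11. Without trichostatin A C1 replicate 3, both S100P rows and S100A6 were no longer called (adjusted p = 0.418 for S100P_24732, 0.783 for S100P_6092 and 0.104 for S100A6). With the cell batch as a block, S100P_6092 was not called either (adjusted p = 0.0579). S100A6 and S100P_6092 were not called without any 1 of the batches (adjusted p from 0.116 to 0.192 and from 0.243 to 0.952), S100A11 was not without replicate 2 (adjusted p = 0.0614), and S100P_24732 was not without replicate 3 (adjusted p = 0.851).

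The other 11 S100 genes of the table gave a further view of the family. Of 31 pairs of row and chemical that could be tested by trend, 6 rose and 15 fell, where 12.7% of all pairs went each way. The 6 were S100A7 and S100A7A, which were near 0 at C1 and can pass the filter through their high groups alone, so that count is no support for a rise. S100A2, a family member of basal epithelia, fell under 7 chemicals, with a median fitted log2 change of -3.15 and a median level of 299 CPM at C1 and 29.0 at C5. S100A3 also fell under 7, with a median of -2.28. In both, trichostatin A was the exception. S100A7 (psoriasin) had medians of 0 CPM at C1 and 5.12 at C5, and its near copy S100A7A had 0 and 1.73, so the probes of these copies may share reads. Under mocetinostat S100A7 was at 0 in all 3 C1 libraries and at 29.4, 30.5 and 24.6 CPM at C5. S100A7 and S100A7A are the next genes after S100A8 in the cluster.

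Among genes for S100 partners, targets and receptors, 31 of 111 pairs rose by trend and 3 fell, where 12.7% of all pairs went each way. ANXA1, the partner of S100A11, rose under 7 of 8 chemicals, with C5 changes of 2.29 for apicidin, 1.21 for vorinostat and 0.09 for trichostatin A (adjusted p = 2.08e-10, 5.63e-09 and 0.933). ANXA5, a phospholipid-binding annexin, rose under 6 in both of its rows. MYH9, the heavy chain of nonmuscle myosin that S100A4 binds, rose under 3, and CACYBP, the S100A6 partner, under 2 in 1 row. AGER, the receptor of S100A12 and S100P, fell under 2 of the 7 chemicals in which it was tested. The median fitted change of the list was 0.28.

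Genes of innate defense and the acute phase did not all follow calprotectin. Of 89 pairs, 11 rose by trend and 22 fell, with a median of -0.17; over all rows 12.7% of pairs rose and 12.7% fell, so the number rising was near that of the table. LCN2, a secreted iron-siderophore binder, rose under 4 chemicals and TNFAIP3, a brake on NF-kappa-B signaling, under 2 in each of its rows. The hepatic acute-phase genes HP and CRP fell under 7 chemicals each, SAA1 under 4 and SAA2 under 3. The 8 hepatocyte markers fell in 57 of 72 pairs and rose in none, and the biliary markers rose in 11 of 33 and fell in none. Of the biliary rises, SPP1 and SOX9 gave 5 each and 1 row of KRT19 gave 1. EPCAM and CFTR, with at most 2 and 13 counts, were not tested. The part of all these markers in the S100 changes was not tested.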

How the data were processed

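The authors deposited raw counts, whole numbers per detector probe and library, with no normalization. The submitters' processing notes name bcl2fastq 2.20.422, fastp 0.23.2, STAR 2.7.10b and DESeq2 1.38.0, with no role or build, and the probe annotation is not given in the sources used here. The paper given with the series describes another experiment and served for style alone. Of 22069 rows, 1 (SEC13) lacked values in some libraries and was left out.

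The S100 genes and all gene lists were chosen with earlier results of these data known. Named were every row of the 10 genes and, of each further list, at most 6 rows, those called by trend in the most chemicals. Counts were fitted with edgeR 4.0.16 in R 4.3.3 (filterByExpr, TMM, glmQLFit and glmQLFTest), separately for each chemical over all its rows, with Benjamini-Hochberg adjustment, and the joint model held all 118 libraries. SEs were taken from the log2 change and its F statistic. CPM used TMM factors, and log2 CPM a prior count of 2. Bounds used 3 counts per library. The script was tested on simulated data. Replicate numbers pair libraries because the labels tie each to a HepaRG batch; the median correlation of deviations from group means was 0.0364 within a batch (232 pairs) and -0.0147 between batches (464 pairs). Alternatives were DESeq2 1.42.0, its size factors in edgeR, total counts alone, no low-count filter, the batch as a block, 1 fit of all libraries and leaving out each batch. Leaving out single libraries that stood apart, and vorinostat in the joint test of S100A8, were chosen after seeing the data. The labelled concentrations were used in µM; for valproic acid the labels and the treatment protocol give different numbers, which leaves the slope in log2 concentration unchanged. Promoter sequences came from RefSeq.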

Additional observations from a re-analysis of the deposited data

Results flagged for a closer look

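The C5 against C1 change differed between chemicals, by an interaction F test in the joint edgeR fit with Benjamini-Hochberg adjustment, for 8 S100 rows. The adjusted p was 2.75e-13 for S100A9, 7.86e-08 for S100A14, 6.28e-07 for S100P_24732, 7.47e-06 for S100A13, 0.000256 for S100A11, 0.0257 for S100A6 and 0.0445 for S100P_6092. For S100A8, over the 7 chemicals without vorinostat, it was 1.20e-11. The S100P rows and S100A6 can pass the low-count filter through their high groups alone. They also rest on 1 library. Without trichostatin A C1 replicate 3, S100P_24732 (adjusted p = 0.418), S100P_6092 (0.783) and S100A6 (0.104) were not called by this test.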

How the results depend on the processing

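Counting all 11 S100 rows, 34 pairs of row and chemical were called at C5 against C1, 29 at C4, 17 at C3 and 6 at C2, of 68, 68, 68 and 60 tested; over all rows the shares called were 25%, 16%, 5.98% and 0.0954%. These counts hold low-count rows that can pass the filter through their high groups alone. With 1 batch or 1 library left out, these counts ranged from 22 to 34, 19 to 30, 11 to 18 and 1 to 9; the 9 came without mocetinostat C2 replicate 3, where 29.7% of rows were called. The lowest C5 and C4 counts came without replicate 2. For scriptaid the C5 count was 7, and 1 to 8 with a batch left out. Trichostatin A went from 0 to 3 without the low-count filter and to 1 with all libraries in 1 fit. Valproic acid went from 1 to 2 with total counts alone, DESeq2, no low-count filter or the replicate block, to 0 with all libraries in 1 fit, and ranged from 0 to 2 with a batch left out. The joint test called 7 rows besides S100A8, and 4 without trichostatin A, without its C1 replicate 3, and at the lowest with a batch left out (4 to 5). Of 146 single called results, 81 were called under every alternative run for them, 65 lost the call under at least 1, and 0 reversed. Not every alternative was run for all 146. The 1 fit of all libraries gave no slope and, outside vorinostat, no comparison against C3. It kept 79 calls and lost 17. Without replicate 2, which leaves at most 2 libraries per group, 53 were lost. Of 69 values at C5 or by trend that were not called, 12 were called under at least 1 alternative. The replicate block lost 4 of the 146 calls and the joint call of S100P_6092, and made that of S100A9 under valproic acid. Scaling by total count alone moved the median of all rows by up to 0.24 on the log2 scale (tacedinaline trend). The cause of these changes was not tested. Depth limits S100A6, S100A12 and S100P, which lie at a few counts at C1.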
